A study of Mus musculus with 12 samples.

Results

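Epididymal white adipose tissue (eWAT) of mice fed a high-fat diet (HFD) with green tea extract was compared with that of mice fed a normal diet (ND), to see which genes still differed from the lean tissue when the extract was in the diet. All mice were male C57BL/6J, were individually housed, received their diets from 5 weeks of age for 12 weeks and were 17 weeks old at sampling. The GT group ate the HFD with an ethanol extract of green tea at 0.25% (w/w), the HFD group ate the same diet without it, and the ND group ate neither the HFD nor the extract. The TJ group ate the HFD with Taeeumjowitang, an herbal preparation, at 3% (w/w). The labels give 10 mice in each of 4 groups, and 3 libraries of each group were sequenced. They do not say whether an ND or GT library came from 1 mouse, so the p-values below measure the spread between libraries. Of 23474 genes in the deposited table, the comparison took the 14249 whose mean over the 6 GT and ND libraries was 1 FPKM or more. FPKM counts fragments per length of transcript and per size of library. Values of a group are given below in the order of replicates 1, 2 and 3.

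White adipose tissue stores triglyceride and secretes hormones such as leptin, which informs the brain of the fat store, and adiponectin, which raises insulin sensitivity. When it expands on a fatty diet, monocytes enter and become macrophages that gather around dying adipocytes, take up their lipid and digest it in lysosomes. These lipid-associated macrophages carry the receptor TREM2, and their gene set differs from that of the macrophages resident in lean fat. Collagen is deposited around the cells, while genes of adipocyte metabolism, among them those that break down branched-chain amino acids, are known to fall in obese fat.

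The labelled tissue was checked against marker genes. The summed FPKM of 10 adipocyte markers was 24246, 25964 and 28004 in the GT libraries and 6875, 34886 and 23448 in the ND libraries, so that ND replicate 1 stood far below all others. In that library 20 germ cell genes of the testis took 11.1% of the summed FPKM and 16 epididymis genes took 2.33%, and its most abundant gene was Tnp1, a transition protein of sperm chromatin. Germ cell genes summed to 111580.0, 239 and 3712 FPKM in the ND group, 2446, 94.2 and 86.3 FPKM in the HFD group and 133, 55.5 and 62.1 FPKM in the GT group. ND replicate 3 therefore also carried them, at a lower level. The GT libraries showed the markers of adipose tissue and had a summed epididymis signal of 1.92, 0.659 and 0.877 FPKM. Counts are therefore given below for GT against ND replicates 2 and 3 as well as against all 3 ND libraries, and the values of single genes show ND replicate 1 first.

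**Figure D1:**
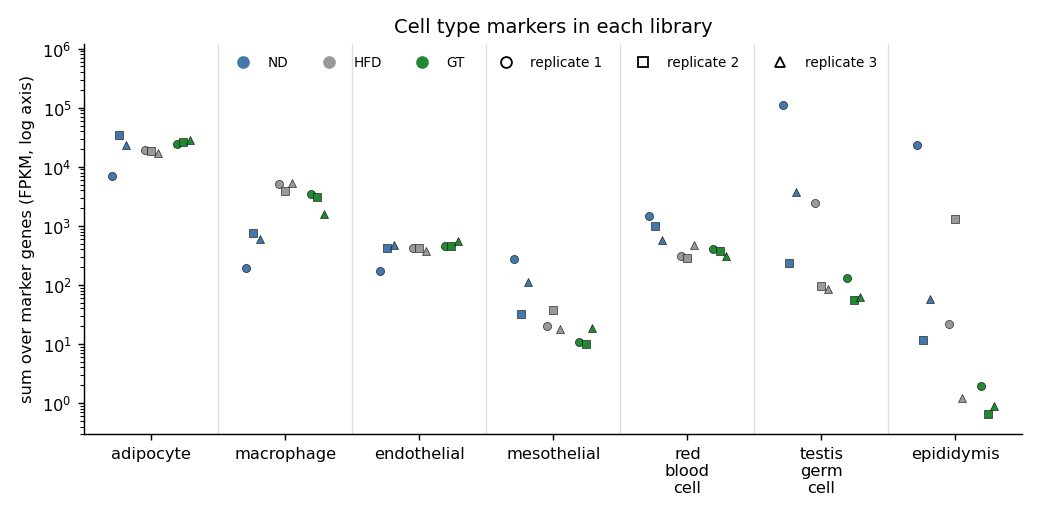
Summed FPKM of the markers of 7 cell types (x axis) in each ND, HFD and GT library, on a log axis, with 1 point for each library. Macrophage markers lay between 1581 and 3516 FPKM in the GT libraries and between 191 and 756 FPKM in the ND libraries, and ND replicate 1 was the lowest library for adipocyte markers and the highest for testis and epididymis markers.

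The GT libraries were alike, with Spearman correlations across genes of 0.98 to 0.991, genes not being independent replicates. ND replicates 2 and 3 correlated at 0.858, and ND replicate 1 correlated with the other 5 libraries at only 0.222 to 0.512. The estimated depth was 15.5M to 19.5M fragments in the GT group, and 9.77M, 16.2M and 14.8M in the ND group. No interval was derived from it.

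With all 3 ND libraries, no gene was differentially expressed between GT and ND by limma. A DEG is here a gene with a 1.5-fold or larger change and an adjusted p under 0.05. The smallest limma adjusted p was 0.137, and 801 genes (5.62%) were higher and 707 (4.96%) lower in GT at an unadjusted p under 0.05. Without ND replicate 1, 13306 genes were tested, of which 6 were DEGs by limma, all higher in GT (0.0451%), while 0 (0%) were lower DEGs. In this fit 1615 genes (12.1%) were higher and 1556 (11.7%) lower at an unadjusted p under 0.05, the shares against which the counts of list members below are to be read, and many limma adjusted p-values lay just above the threshold. At an adjusted p under 0.06 there were 56 genes of at least 1.5-fold, and at an adjusted p under 0.1 there were 914, of which 646 were higher and 268 lower. When the HFD and TJ libraries were added so that all 11 libraries shared the estimate of the spread, an alternative chosen after the data had been seen, 621 genes (4.67%) were higher DEGs and 246 (1.85%) lower DEGs. The TJ group served here only for that estimate. All 6 genes of the smaller fit were among them. Same-numbered GT and ND libraries deviated together only weakly, with correlations of 0.118 to 0.219 against at most 0.0978 for unlike numbers. With the replicate number as a block the 11-library fit kept 73 higher (0.549%) and 17 lower DEGs (0.128%), all 90 among the 867 without the block. The 5-library fit with the block gave 0 DEGs, with 1689 genes at an unadjusted p under 0.05 and a smallest limma adjusted p of 0.0949. The calls of the 11-library fit given below are those without the block, with the number or the limma adjusted p with the block beside them. Of 63 genes named in the text that were DEGs in the 11-library fit, 18 were also DEGs with the block, namely Agpat2, Cfb, Ctsd, Gm17611, Grb10, Hp, Lgals3, Lipf, Med18, Pcolce2, Plin2, Saa3, Sfrp5, Tfr2, Timp1, Trem2, Ubd and Ucp2. The other 45 had limma adjusted p-values of 0.051 to 0.108 with the block. Among the 18, Gm17611 was tested only because of its ND level and Tfr2 only because of its GT level.

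The 6 DEGs without ND replicate 1 were Gpr50, Tfr2, Lipf, Slc5a7, Dock8 and Pcolce2. Tfr2, transferrin receptor 2, which takes part in iron sensing, had 1.18, 0.637 and 1.06 FPKM in the ND libraries and 15.6, 17.5 and 16.3 FPKM in the GT libraries, a log2 fold change of 3.25 ± 0.17 (SE) without ND replicate 1 (limma adjusted p = 0.0341). Gpr50, an orphan receptor related to the melatonin receptors, had 0.0388, 0.0224 and 0.311 FPKM in ND, where it was close to 0, and 13.3, 16.3 and 21 FPKM in GT (3.93 ± 0.25, limma adjusted p = 0.0475). The GT and ND values of both genes were clearly apart, also in ND replicate 1. The mean of each in ND replicates 2 and 3 was under 1 FPKM, so both were tested only because of their GT level. Slc5a7, a choline transporter, had 0.0358, 5.69 and 6.45 FPKM in ND and 29.9, 31.2 and 39.2 FPKM in GT, and Dock8, a guanine nucleotide exchange factor of leukocytes, had 0.419, 8.94 and 7.5 FPKM in ND and 33.5, 37.3 and 34.3 FPKM in GT. Pcolce2, an enhancer of procollagen processing, had 0.524, 8.22 and 9.11 FPKM in ND and 30.2, 29.8 and 33.9 FPKM in GT, and shares its locus with Gm16127, whose reads cannot be told apart without strand. Lipf, a gastric lipase, had 1.24, 1.24 and 1.24 FPKM in ND and 10.5, 13.2 and 9.54 FPKM in GT. The log2 fold changes of these 4 genes were 2.28 ± 0.16, 1.97 ± 0.14, 1.74 ± 0.13 and 2.42 ± 0.19 in the same order, each with a limma adjusted p of 0.0497. In the HFD libraries the 6 genes were also above every ND library, with Tfr2 at 12.2, 14.2 and 18.2 FPKM and Gpr50 at 20.4, 22 and 37.1 FPKM. Against the HFD group their log2 fold changes in GT lay between -0.60 (Gpr50) and 0.35 (Slc5a7), with limma adjusted p-values of 0.173 and above. With the block, Tfr2, Lipf and Pcolce2 were DEGs in the 11-library fit and the other 3 were not.

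Of 15 genes of lipid-associated macrophages, all tested, 14 were higher in GT than in ND replicates 2 and 3 at an unadjusted p under 0.05, none was lower, and the median log2 fold change was 2.75 against -0.08 over all tested genes. With all 3 ND libraries 13 were higher and the median was 3.52. In the 11-library fit 11 of the 15 were higher DEGs, 5 of them with the block. In 14 of the 15 every GT library lay above ND replicates 2 and 3, which held for 20% of all genes. In bulk tissue, more macrophages and more RNA for each macrophage cannot be told apart. No gene being a DEG with all 3 ND libraries, genes that had an unadjusted p under 0.05 both with and without ND replicate 1 were ranked by the smaller of their 2 log2 fold changes. Of the 10 highest in this ranking, 4 belonged to this list, namely Gpnmb, Mmp12, Atp6v0d2 and Trem2.

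Gpnmb, a transmembrane glycoprotein of lipid-laden macrophages, had 2.32, 3.75 and 6.01 FPKM in the ND libraries and 535, 432 and 143 FPKM in the GT libraries. Its log2 fold change was 5.80 ± 0.59 (SE) without ND replicate 1 (limma adjusted p = 0.0515, 0.0203 in the 11-library fit and 0.051 with the block). Trem2, the lipid-sensing receptor that defines these cells, had 7.58, 2.3 and 2.61 FPKM in ND and 238, 169 and 59.2 FPKM in GT. Mmp12, macrophage elastase, had 0.0959, 9.7 and 5.95 FPKM in ND and 441, 367 and 139 FPKM in GT, and its locus overlaps Mmp1b. Atp6v0d2, a subunit of the proton pump that acidifies lysosomes, had 2.04, 1.42 and 1.16 FPKM in ND and 120.1, 91.9 and 35.6 FPKM in GT. The groups were far apart for all of these genes, and GT replicate 3 was the lowest GT library for each. Itgax, the integrin CD11c, had 0.159, 2.23 and 3.28 FPKM in ND and 56.6, 48 and 22.6 FPKM in GT, and Lgals3, the lectin galectin-3, had 27.5, 101 and 70.8 FPKM in ND and 1464, 1052 and 486 FPKM in GT. Spp1, the cytokine osteopontin, came to 0.398, 0.218 and 9.17 FPKM in ND and 31.6, 26.4 and 10.7 FPKM in GT. Its ND replicate 3 was close to GT replicate 3, and its limma adjusted p was 0.181 without ND replicate 1. The fatty acid transporter Cd36, at 43, 2230.02 and 1595 FPKM in ND and 1780.2, 2014 and 2044 FPKM in GT, had the smallest difference of the list (0.04 without ND replicate 1), and adipocytes use it too.

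For all 15 genes the GT mean lay below that of HFD and above that of ND replicates 2 and 3. A GT mean between those of the 2 other groups, in either direction, was found for 6122 of all 13306 genes. Their median log2 fold change was 4.04 for HFD against ND replicates 2 and 3 and -1.19 for GT against HFD. In that last comparison 0 of the 15 were DEGs, while 1.81% of all genes were lower DEGs there. At an unadjusted p under 0.05, 12 of the 15 were lower in GT and 0 higher, where 2470 of all 12766 genes were lower. Gpnmb was at 874, 699 and 958 FPKM and Trem2 at 338, 232 and 365 FPKM in the HFD libraries. The comparisons share libraries, so the values stand side by side and were not tested for overlap. GT replicate 3 was the lowest GT library for 14 of the 15 genes, against 6328 of all 13306 genes tested without ND replicate 1.

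**Figure D2:**
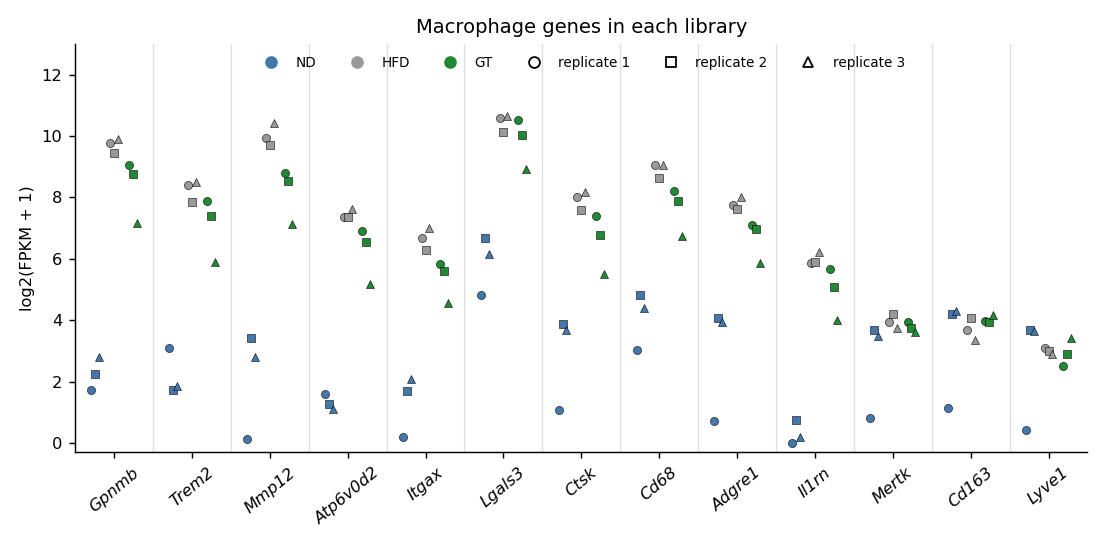
log2(FPKM + 1) of 13 macrophage genes (x axis) in each library, with 1 point for each library. Gpnmb, Trem2 and Mmp12 in the GT libraries lay above every ND library and below or close to the HFD libraries, while Cd163, a scavenger receptor of resident macrophages, had 14.8, 14.3 and 16.9 FPKM in GT and 17.6 and 18.6 FPKM in ND replicates 2 and 3.

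General macrophage markers showed the same order. Of 12 markers, 11 were higher in GT than in ND replicates 2 and 3 at an unadjusted p under 0.05 and none was lower (median 1.75), against 11 higher and 0 lower with all 3 ND libraries (median 2.18), and 7 were higher DEGs in the 11-library fit, 0 with the block. Cd68, a protein of macrophage lysosomes, had 7.19, 27 and 19.9 FPKM in ND and 293, 233 and 106 FPKM in GT, 8.98-fold the mean of ND replicates 2 and 3. Adgre1, the surface marker F4/80, had 0.651, 16 and 14.3 FPKM in ND and 136, 125 and 57.4 FPKM in GT, 6.98-fold. For both genes all GT libraries were above all ND libraries. Mertk, a receptor for the uptake of dying cells, differed least, with 0.772, 11.9 and 10.1 FPKM in ND and 14.2, 12.3 and 11.3 FPKM in GT.

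Genes of resident macrophages differed less without ND replicate 1. Of the 11 tested, 4 were higher, against 12.1% of all genes, and 1 was lower at an unadjusted p under 0.05, with a median of 0.09. There were 1 higher and 0 lower with all 3 ND libraries (median 0.81), and all 11 differences were then above 0. Clec10a, a lectin of alternatively activated macrophages, had 6.6, 30.5 and 24 FPKM in ND and 106, 63.4 and 43.3 FPKM in GT. It was the only DEG of the list in the 11-library fit (limma adjusted p = 0.0358, 0.0596 with the block). Mrc1, the mannose receptor, had 1.83, 24.4 and 19.5 FPKM in ND and 43.9, 40.3 and 25.1 FPKM in GT. Lyve1, a hyaluronan receptor of perivascular macrophages and lymphatic vessels, had 0.353, 11.7 and 11.7 FPKM in ND and 4.65, 6.5 and 9.85 FPKM in GT, with a limma adjusted p of 0.207.

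Lysosomal genes were higher in GT as a group. Of 20 genes, 16 were higher in GT than in ND replicates 2 and 3 at an unadjusted p under 0.05 and none was lower (median 1.32), and 14 were higher DEGs in the 11-library fit, 2 with the block. With all 3 ND libraries 15 were higher, with a median of 1.77. In 16 of the 20 genes every GT library was above every ND library, which held for 14.6% of all genes. Ctsd, the acid protease cathepsin D, had 378, 826 and 753 FPKM in ND and 2396, 2502 and 1984 FPKM in GT (1.53 ± 0.18 without ND replicate 1). Gla, which cleaves galactose from glycolipids, had 0.595, 1.97 and 1.97 FPKM in ND and 16.5, 15.2 and 6.19 FPKM in GT, and the protease Lgmn had 33.7, 54.3 and 57.5 FPKM in ND and 334, 274 and 139 FPKM in GT. These 3 genes were each lowest in ND replicate 1 and had no overlap between the groups. Lamp1, a membrane protein of the lysosome, had 148, 298 and 254 FPKM in ND and 517, 463 and 374 FPKM in GT, and Ctsa, which protects other hydrolases, had 24.6, 93.6 and 93.4 FPKM in ND and 252, 206 and 138 FPKM in GT. All 5 were DEGs in the 11-library fit, and with the block Ctsd was the only DEG of the 5. Lamp1 overlaps Grtp1, and Ctsa overlaps Neurl2 and Pltp. The cholesterol transporter Npc1 had the lowest value of the list, at 1.49, 14.8 and 17.7 FPKM in ND and 16.9, 17.6 and 11.6 FPKM in GT (-0.09).

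The transcription factors TFEB and TFE3, which drive lysosomal genes, are known to bind motifs built around CACGTG. The letters TCACGTG were therefore searched on both strands in the 250 bases before the RefSeq start site, a search chosen with the results known. A palindromic TCACGTGA matches on both strands, and every TCACGTG also holds CACGTG. Of the 20 lysosomal genes 13 had an entry, and 5 of these (38.5%) held TCACGTG, against 968 of 27025 genes with an entry (3.58%). For CACGTG the shares were 6 of 13 (46.2%) and 1854 genes (6.86%). Neither was found in the windows of 12 lipid-associated macrophage genes, 8 macrophage markers, 6 MHC class II genes or 12 collagen genes. The stretches of the 5 promoters that hold the matches are shown 5′ to 3′ on the strand of the gene, from RefSeq on GRCm38.p6, with TCACGTG and its reverse complement CACGTGA in capitals. A match describes the letters and is no evidence of binding.
Ctsa (chr2:164833730-164833772, + strand): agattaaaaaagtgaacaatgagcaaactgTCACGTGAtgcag
Ctsd (chr7:142387889-142388077, − strand): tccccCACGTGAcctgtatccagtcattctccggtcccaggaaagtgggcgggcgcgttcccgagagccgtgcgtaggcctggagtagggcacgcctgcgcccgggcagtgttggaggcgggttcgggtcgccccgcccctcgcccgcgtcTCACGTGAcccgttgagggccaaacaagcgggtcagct
Gla (chrX:134601163-134601255, − strand): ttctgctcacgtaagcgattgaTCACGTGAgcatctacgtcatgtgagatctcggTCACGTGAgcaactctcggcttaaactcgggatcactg
Lamp1 (chr8:13159069-13159160, + strand): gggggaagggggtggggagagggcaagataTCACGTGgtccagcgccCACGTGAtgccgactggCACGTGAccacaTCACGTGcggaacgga
Lgmn (chr12:102439106-102439172, − strand): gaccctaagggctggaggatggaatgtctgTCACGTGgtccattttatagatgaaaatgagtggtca
In Ctsa, Lamp1 and Lgmn the first match began 13, 62 and 50 bases before the start site, and in Ctsd and Gla it began 245 and 228 bases before it.

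Genes of inflammation were higher as well. Of 13 tested genes of cytokines, the inflammasome and Toll-like receptors, 10 were higher in GT than in ND replicates 2 and 3 at an unadjusted p under 0.05 and none was lower (median 1.31), against 8 higher and 0 lower with all 3 ND libraries (median 1.62), and 6 were higher DEGs in the 11-library fit, 1 with the block. The other 6 of the 19 genes of the list were too low to be tested, and 3 of the 13 had a mean under 1 FPKM in ND replicates 2 and 3 and were tested only because of their GT level. Saa3, the acute-phase protein of inflamed fat, had 2.73, 4.25 and 2.96 FPKM in ND and 219, 145 and 77.7 FPKM in GT, with a log2 fold change of 4.90 ± 0.44 (limma adjusted p = 0.0502). It was at 101, 102 and 89.3 FPKM in HFD, so that GT replicates 1 and 2 were above all HFD libraries. Il1rn, the antagonist of the interleukin-1 receptor, had 0, 0.70 and 0.154 FPKM in ND and 50.1, 33.1 and 15 FPKM in GT, and Tlr13, a sensor of bacterial ribosomal RNA, had 0.0425, 0.487 and 0.544 FPKM in ND and 21.3, 14.7 and 5.5 FPKM in GT. The interleukin Il18 was nearly level, with 2.03, 2.94 and 2.63 FPKM in ND and 2.79, 3.23 and 2.74 FPKM in GT. The tumour necrosis factor gene Tnf was under the expression limit, at 0, 0.207 and 0.167 FPKM in ND and 1.98, 1.53 and 0.941 FPKM in GT.

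Of 18 tested chemokines and receptors, 10 were higher at an unadjusted p under 0.05 and none was lower (median 1.06), against 7 higher and 0 lower of 16 with all 3 ND libraries (median 1.60), with 6 higher DEGs in the 11-library fit and 0 with the block. Of the 18, 3 had a mean under 1 FPKM in ND replicates 2 and 3 and were tested only because of their GT level, and another 3 were too low. Ccl2, which recruits monocytes, had 0.156, 4.04 and 4.08 FPKM in ND, 21.6, 21.7 and 12.6 FPKM in GT and 39, 34.3 and 49.5 FPKM in HFD. The GT libraries were above every ND library and below every HFD library, and Ccl2 was a lower DEG in GT against HFD (-1.12 ± 0.23, limma adjusted p = 0.0489), and its locus overlaps Gm17268. Ccl9, another monocyte chemokine, had 1.5, 25.7 and 22.6 FPKM in ND and 204, 153 and 75.6 FPKM in GT. Ccl8 had 9.87, 6.63 and 5.44 FPKM in ND, 61, 32 and 21 FPKM in GT and 26.1, 29.3 and 21.7 FPKM in HFD. Cxcl10, an interferon-induced chemokine, was the lowest of the list (-0.64 without ND replicate 1, limma adjusted p = 0.279).

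Of 10 tested genes of MHC class II presentation, 8 were higher at an unadjusted p under 0.05 and none was lower (median 1.15), against 8 higher and 0 lower with all 3 ND libraries (median 1.57), and 6 were higher DEGs in the 11-library fit, 1 with the block. H2-DMb1, which loads peptides, had 13, 16.8 and 17.1 FPKM in ND and 94.9, 72.1 and 42 FPKM in GT. Cd74, the invariant chain, had 149, 565 and 472 FPKM in ND, 1445, 1201 and 881 FPKM in GT and 1406, 1041 and 1159 FPKM in HFD. GT and HFD were close for this list, whose median was 1.20 in HFD against ND replicates 2 and 3 and -0.11 in GT against HFD. Interferon-stimulated genes had a smaller median of 0.34, with 4 of 13 higher and none lower at an unadjusted p under 0.05, against 3 higher and 0 lower with all 3 ND libraries (median 0.87).

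Further genes among the 10 highest in that ranking were Ubd, F7, Rgs1 and Adam8. Ubd, a ubiquitin-like protein of immune cells, had 1.43, 8.25 and 4.8 FPKM in ND and 314, 193 and 98.5 FPKM in GT. F7, coagulation factor VII, had 0.403, 0.285 and 0.297 FPKM in ND and 44.5, 30.1 and 11.3 FPKM in GT. Rgs1, a regulator of G protein signalling in leukocytes, had 0.0604, 0.602 and 0.463 FPKM in ND and 47.5, 27.6 and 14.6 FPKM in GT, and the protease Adam8 had 0.582, 2.14 and 4.98 FPKM in ND and 124, 91.4 and 36.3 FPKM in GT. All 4 were DEGs in the 11-library fit, Ubd alone also with the block, with no overlap between GT and ND. F7 and Rgs1 were under 1 FPKM in every ND library and were tested only because of their GT level. Atf3, a stress-induced transcription factor and the highest of the 14 stress response genes, had 0.529, 4.55 and 3.47 FPKM in ND and 84.1, 69 and 24.6 FPKM in GT. The lowest of these 14, Asns, which makes asparagine, had 59.6, 46.1 and 52.4 FPKM in ND and 18.5, 24.2 and 24.6 FPKM in GT (-1.11, limma adjusted p = 0.0316 in the 11-library fit and 0.0802 with the block).

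Collagen genes were higher in GT throughout. In all 16 every GT library was above every ND library, 13 were higher than ND replicates 2 and 3 at an unadjusted p under 0.05, and 4 were higher DEGs in the 11-library fit, 0 with the block. The median was 0.81 without ND replicate 1 and 1.93 with it, where only 4 were higher at an unadjusted p under 0.05. Col1a1, the main chain of fibrillar collagen, had 8.3, 34.8 and 57.3 FPKM in ND and 169, 149 and 97.1 FPKM in GT. Col6a2, a chain of the collagen that surrounds adipocytes, had 10.3, 104 and 100.02 FPKM in ND, 256, 268 and 236 FPKM in GT and 280.1, 229.7 and 229.7 FPKM in HFD. Col6a3 had 2.65, 31 and 22.2 FPKM in ND and 56.5, 44.1 and 40.7 FPKM in GT, and Col14a1, the lowest of the list, had 3.64, 13.6 and 16.5 FPKM in ND and 16.8, 19.4 and 17.1 FPKM in GT. ND replicate 1 was the lowest library for all 4 genes. The collagen median was 1.20 in HFD against ND replicates 2 and 3 and -0.08 in GT against HFD.

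Of 28 genes of matrix remodelling, 14 were higher and 3 lower than ND replicates 2 and 3 at an unadjusted p under 0.05 (median 0.58), against 7 higher and 0 lower with all 3 ND libraries (median 1.18). Timp1, an inhibitor of metalloproteases, had 5.71, 1.48 and 1.25 FPKM in ND, 13.2, 10.4 and 6.0 FPKM in GT and 42.6, 22 and 39.3 FPKM in HFD. It was a higher DEG than ND in the 11-library fit (limma adjusted p = 0.0199, 0.0472 with the block) and a lower DEG than HFD (limma adjusted p = 0.0441), with Syn1 at the same locus. Sparc, a collagen-binding protein of adipocytes, had 185, 2103 and 2175 FPKM in ND, 3464, 4432 and 4773 FPKM in GT and 2456, 2486 and 2761 FPKM in HFD, so that GT was above both other groups. Thbs1, thrombospondin, was the lowest of the list, at 7.91, 166 and 117 FPKM in ND and 35.8, 67.6 and 66.8 FPKM in GT. The crosslinking enzyme Lox had 1.18, 64.4 and 54.9 FPKM in ND and 55.5, 64.6 and 52.3 FPKM in GT.

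Genes of secreted adipocyte proteins went different ways. Lep, leptin, had 7.97, 323 and 317 FPKM in ND, 1143, 1117 and 1366 FPKM in GT and 899, 1196 and 1186 FPKM in HFD. Its log2 fold change was 1.91 ± 0.16 without ND replicate 1 (limma adjusted p = 0.0502, 0.0221 in the 11-library fit and 0.0537 with the block) and 0.15 ± 0.15 against HFD (limma adjusted p = 0.52). Its GT and HFD values overlapped, and both lay above every ND library. Sfrp5, an inhibitor of WNT5A signalling, had 10.4, 103 and 114 FPKM in ND, 253, 324 and 403 FPKM in GT and 209.5, 163 and 181 FPKM in HFD.

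Cfd, adipsin, which activates the alternative complement pathway, was lower in GT. It had 3048, 4074 and 3626 FPKM in ND, 799.7, 1204 and 1668 FPKM in GT and 337, 349 and 251 FPKM in HFD, with no overlap between any 2 of the groups. All 3 GT libraries were below all 3 ND libraries for 14.9% of all genes. Its log2 fold change was -1.71 ± 0.33 against ND replicates 2 and 3 (limma adjusted p = 0.0752) and 1.92 ± 0.27 against HFD (limma adjusted p = 0.0338). Agt, angiotensinogen, had 101, 106 and 121 FPKM in ND and 22.9, 46.9 and 62.3 FPKM in GT, and Nrg4, a growth factor that adipocytes send to the liver, had 5.74, 89.3 and 72.7 FPKM in ND and 25.9, 30.3 and 44.8 FPKM in GT. The HFD libraries had 15.4, 14.7 and 8.31 FPKM of Agt and 12.4, 14.8 and 12.7 FPKM of Nrg4, so GT lay between HFD and ND replicates 2 and 3 for both. Adipoq, adiponectin, had 202, 2781 and 1826 FPKM in ND and 1258, 1741 and 2129 FPKM in GT, and its difference from ND replicates 2 and 3 was within the spread (-0.43 ± 0.31, limma adjusted p = 0.413). Retn, resistin, had 350.02, 1128 and 679 FPKM in ND and 411, 486 and 598 FPKM in GT (-0.83, limma adjusted p = 0.167). Over the 14 adipokines tested, 4 were higher and 5 lower at an unadjusted p under 0.05, with a median of -0.19, against -0.56 in HFD. There were 3 higher and 2 lower with all 3 ND libraries (median 0.80).

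Genes of plasma proteins chosen after their values were seen had their highest group means in GT. Hp, haptoglobin, which binds haemoglobin, had 219, 1181 and 1159 FPKM in ND, 6882, 6342 and 4766 FPKM in GT and 4841, 4824 and 4479.96 FPKM in HFD. Cfb, complement factor B, the partner of adipsin in the alternative pathway, had 7.57, 123 and 118 FPKM in ND, 315, 354 and 337 FPKM in GT and 209, 190.1 and 182 FPKM in HFD. All 3 GT libraries of Cfb were above all ND and HFD libraries, and it was among the 1.83% of genes that were higher DEGs against HFD (limma adjusted p = 0.0311). Igfals, which carries insulin-like growth factors, had 1.09, 12.5 and 8.38 FPKM in ND, 44.3, 50.5 and 50.5 FPKM in GT and 26.4, 24.6 and 25.7 FPKM in HFD. Lbp, which binds bacterial lipopolysaccharide, had 7.36, 110.2 and 113 FPKM in ND, 270.4, 327 and 295 FPKM in GT and 205, 202 and 224 FPKM in HFD. Igfals and Lbp likewise stood above both other groups in every GT library, and their log2 fold changes against ND replicates 2 and 3 were 2.13 ± 0.19 and 1.40 ± 0.14.

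**Figure D3:**
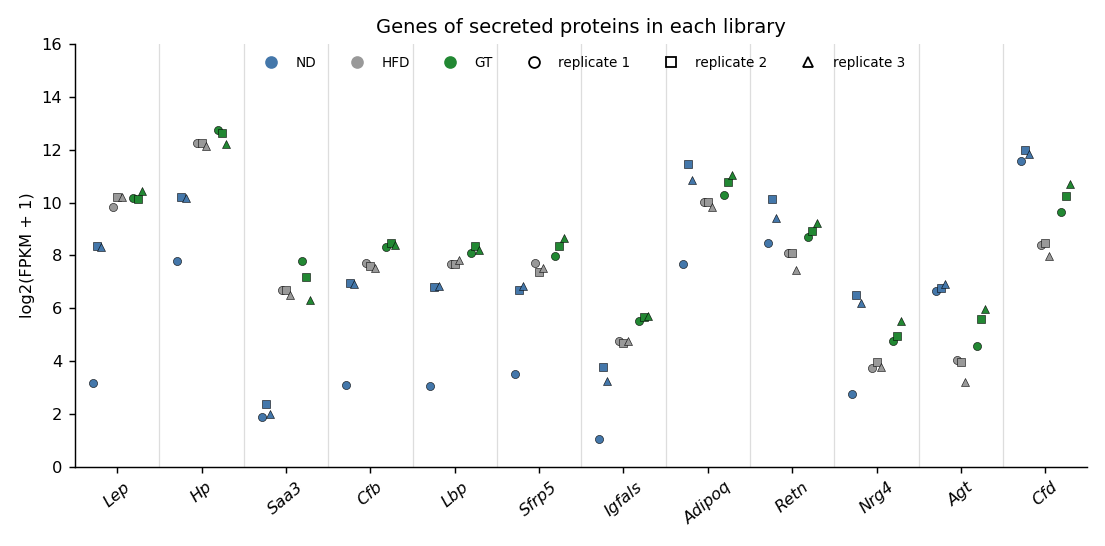
log2(FPKM + 1) of 12 genes of secreted proteins (x axis) in each library, with 1 point for each library. Lep, Hp, Saa3, Cfb, Lbp, Sfrp5 and Igfals in GT lay above every ND library, Agt and Cfd lay below every ND library, and ND replicate 1 was the lowest point for most genes of adipocytes.

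Of 17 genes of de novo lipogenesis, 6 were higher and 3 lower than ND replicates 2 and 3 at an unadjusted p under 0.05 (median 0.19), against 2 higher and 0 lower with all 3 ND libraries (median 1.09). The shares of all genes were 12.1% and 11.7%. Scd2, a fatty acid desaturase, had 21.7, 23 and 36.9 FPKM in ND and 183, 139 and 117 FPKM in GT. Its adipocyte counterpart Scd1 had 306, 11074 and 9242 FPKM in ND and 7249, 8867 and 12114 FPKM in GT. Acaca, acetyl-CoA carboxylase, which commits carbon to fatty acids, had 8.0, 74.2 and 85.8 FPKM in ND and 23.4, 48.5 and 33.6 FPKM in GT and was a lower DEG in the 11-library fit (limma adjusted p = 0.0255, 0.0537 with the block). Fasn, fatty acid synthase, had 34.5, 333 and 287 FPKM in ND and 497, 433 and 412 FPKM in GT (limma adjusted p = 0.14). Elovl6, an elongase, had 5.29, 5.37 and 5.54 FPKM in ND and 4.25, 3.38 and 3.6 FPKM in GT.

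In triglyceride synthesis and the lipid droplet, 4 of 15 genes were higher and 2 lower at an unadjusted p under 0.05 (median -0.06), against 3 higher and 0 lower with all 3 ND libraries (median 0.84), so that the median changed sign. Plin2, a droplet coat protein also found in lipid-laden macrophages, had 58.8, 233 and 275 FPKM in ND and 1068, 867 and 551 FPKM in GT. Agpat2, which makes phosphatidic acid, had 94.6, 78.5 and 77.9 FPKM in ND and 208, 169 and 220.01 FPKM in GT, with Egfl7 at the same locus. Pck1, the enzyme of glyceroneogenesis, had 77.2, 2129.8 and 1954 FPKM in ND, 444, 819 and 980.2 FPKM in GT and 266, 246 and 227 FPKM in HFD. It was a lower DEG than ND in the 11-library fit (limma adjusted p = 0.0335, 0.0748 with the block) and a higher DEG than HFD (limma adjusted p = 0.0411), so that GT lay between the 2 diets without its values meeting either. The cytochrome Cyp2e1 lay between them in the same way, with 102, 1612 and 1492 FPKM in ND, 240.2, 557 and 795 FPKM in GT and 106, 111 and 65.3 FPKM in HFD. For both genes GT replicate 3 was the GT library nearest to ND and GT replicate 1 the farthest. ND replicate 1 was close to the HFD libraries for Cyp2e1 and below them for Pck1, and with it in the fit their log2 fold changes were -0.40 (Cyp2e1) and 0.05 (Pck1).

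Of 15 genes of lipolysis and its receptors, 2 were higher and 3 lower at an unadjusted p under 0.05, close to the shares of all genes (12.1% and 11.7%). There were 1 higher and 0 lower with all 3 ND libraries (median 0.48). Adrb3, the adrenergic receptor that starts lipolysis in adipocytes, had 17.8, 282 and 331 FPKM in ND and 135, 126 and 245 FPKM in GT, and Adora1, an adenosine receptor that restrains it, had 6.82, 18.8 and 22 FPKM in ND and 44.9, 38.3 and 39.98 FPKM in GT. Adora1 was the only DEG of the list (limma adjusted p = 0.0199 in the 11-library fit and 0.0537 with the block). Of 17 genes of cholesterol synthesis and export, 8 were higher and none lower at an unadjusted p under 0.05 (median 0.33, and 0.88 in HFD), against 7 higher and 0 lower with all 3 ND libraries (median 0.81). Soat1, which esterifies cholesterol in macrophages, had 10.2, 2.89 and 5.39 FPKM in ND and 35.3, 27.1 and 12.3 FPKM in GT, and Insig1, a brake on sterol synthesis, had 18.4, 69.6 and 62.5 FPKM in ND and 193, 192 and 165 FPKM in GT. Apoe, the apolipoprotein of cholesterol efflux, was the lowest of the list (-0.35).

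Of 20 genes of insulin signalling and glucose transport, 1 was higher and 4 lower at an unadjusted p under 0.05 (median -0.15), against 1 higher and 1 lower with all 3 ND libraries (median 0.58), and 3 were lower DEGs in the 11-library fit, while 1 was higher. With the block 1 was a lower DEG and 0 were higher. The insulin receptor Insr had 3.51, 33.1 and 32.7 FPKM in ND and 16.5, 17.8 and 20.3 FPKM in GT, and the adaptor Grb10, which restrains it, had 3.08, 31.8 and 31.8 FPKM in ND and 13.4, 14.4 and 15.9 FPKM in GT. The kinase Akt1, downstream of both, had 14.8, 37.1 and 52.5 FPKM in ND and 87, 74.1 and 63.5 FPKM in GT. Their limma adjusted p-values in the 11-library fit were 0.0221, 0.0147 and 0.0417, and with the block 0.0592, 0.0439 and 0.0945. The insulin-dependent glucose transporter Slc2a4 had 2.54, 62.7 and 36 FPKM in ND and 35.3, 47.1 and 69.2 FPKM in GT, and GT overlapped ND replicates 2 and 3. The largest negative value of the list was that of Slc2a3 (-2.97), a glucose transporter also known from sperm, at 133, 9.89 and 125 FPKM in ND and 3.16, 2.84 and 5.56 FPKM in GT. Its 2 high ND libraries were those with the most germ cell RNA, whose part in the value was not tested.

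Among genes that break down branched-chain amino acids, 0 of 20 genes were higher and 8 lower than ND replicates 2 and 3 at an unadjusted p under 0.05, with a median of -0.43. Every GT library was below both ND replicates for 12 of the 20, against 26.7% of all genes. The GT mean of 17 of the 20 lay between those of HFD and ND replicates 2 and 3, which held for 6122 of all 13306 genes. The median of the list in HFD was -0.87. Aldh6a1, which ends the pathway of valine, had 9.99, 319 and 239 FPKM in ND, 109, 137 and 175 FPKM in GT and 76.6, 117 and 89.7 FPKM in HFD, and was the only DEG (limma adjusted p = 0.0406 in the 11-library fit and 0.0906 with the block). Bcat2, which removes the amino group, was the highest of the list, with 58.6, 64 and 57.6 FPKM in ND and 70.8, 71.2 and 65.2 FPKM in GT. With ND replicate 1 in the fit no member of the list was lower at an unadjusted p under 0.05 and the median was 0.43.

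Of 18 tested clock genes, 1 was higher and 5 lower at an unadjusted p under 0.05 (median -0.35), where the shares of all genes were 12.1% and 11.7%. There were 0 higher and 1 lower of 19 with all 3 ND libraries (median 0.10), the opposite sign. Per1, a repressor of the clock, had 24.7, 14.8 and 33.8 FPKM in ND and 8.13, 7.91 and 6.69 FPKM in GT. It was a lower DEG in the 11-library fit (limma adjusted p = 0.0363, 0.0815 with the block). Dbp, an output gene of the clock, was the highest, with 4.34, 1.79 and 4.34 FPKM in ND and 9.33, 5.26 and 6.67 FPKM in GT. The hour of sampling was not analysed here. Among 13 tested adipogenic transcription factors and coactivators the lowest was Ppargc1a, the coactivator of mitochondrial genes, with 0.35, 2.98 and 2.72 FPKM in ND and 0.535, 0.802 and 0.638 FPKM in GT. Pparg, the master regulator of adipocytes, had 3.36, 92.5 and 71.5 FPKM in ND and 65.2, 66.5 and 98.4 FPKM in GT (-0.11, limma adjusted p = 0.789).

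Ucp2, an uncoupling protein found in macrophages, had 47.5, 109 and 128 FPKM in ND and 676, 481 and 321 FPKM in GT and was a higher DEG in the 11-library fit (limma adjusted p = 0.0182, 0.0439 with the block), with Dnajb13 at the same locus. Ucp1, the uncoupling protein of brown fat, was under the expression limit, at 4.43, 0.0395 and 0.0773 FPKM in ND and 0.062, 0.117 and 0 FPKM in GT. Ucp3 had 2.57, 41.5 and 47 FPKM in ND and 23.9, 32.1 and 41.1 FPKM in GT. Lists of mitochondrial genes encoded in the nucleus had medians between -0.12 and 0.12 without ND replicate 1. The median was -0.12 for 82 nuclear OXPHOS subunits, of which 2 were higher and 6 lower at an unadjusted p under 0.05. With all 3 ND libraries 0 of the 82 were higher and 2 lower. Without ND replicate 1 the median was -0.08 for the tricarboxylic acid cycle (13 genes), 0.12 for fatty acid beta-oxidation (20 genes) and 0.01 for mitochondrial ribosomal proteins (75 genes). With ND replicate 1 in the fit these medians were -0.49, 0.44, 0.69 and -0.34 in the same order, so that it moved each of them and turned the sign of 2. None of these 4 lists held a DEG in the 11-library fit. The proteins encoded by mitochondrial DNA had a median of -0.47, with 10 of 12 below 0 and none at an unadjusted p under 0.05, and a median of 0.61 with ND replicate 1. Their summed level was 17247, 148300.0 and 81420.0 FPKM in ND, 69560.0, 81726 and 84298 FPKM in GT and 61491, 74227 and 60224 FPKM in HFD, so that the GT libraries lay far below ND replicate 2 and around ND replicate 3.

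Of 29 genes of glutathione and antioxidant defence, 5 were higher and 7 lower at an unadjusted p under 0.05 (median -0.18), where the shares of all genes were 12.1% and 11.7%. There were 2 higher and 3 lower with all 3 ND libraries (median -0.0022). Hmox1, which degrades haem, had 3.15, 17 and 18.5 FPKM in ND and 88.3, 66.2 and 42.1 FPKM in GT. Gsta4, which detoxifies the lipid peroxidation product hydroxynonenal, had 41.2, 22.4 and 22.4 FPKM in ND, 1.88, 3.39 and 5.77 FPKM in GT and 3.64, 2.42 and 3.54 FPKM in HFD. It was a lower DEG than ND in the 11-library fit (-2.41 ± 0.36 without ND replicate 1, limma adjusted p = 0.0199, 0.0537 with the block), and its GT and HFD values overlapped (limma adjusted p = 0.876). Gpx3, the peroxidase of plasma, was named after its values were seen. It had 451, 438 and 388 FPKM in ND, 85.6, 90.4 and 134 FPKM in GT and 104, 427 and 97.7 FPKM in HFD, where HFD replicate 2 was also the HFD library with the highest epididymis sum (1306 FPKM). The part of that RNA in the value was not tested.

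The 10 lowest genes in the same ranking were all transcripts of male germ cells, among them Prm1 with 18708, 32.3 and 502 FPKM in ND and 16.6, 1.76 and 2.83 FPKM in GT, and Tnp1 with 28802, 45.1 and 707 FPKM in ND and 22.2, 2.87 and 6.29 FPKM in GT. Of 18 tested germ cell genes, 1 was higher and 14 were lower at an unadjusted p under 0.05 without ND replicate 1, when their median was -3.57. With all 3 ND libraries 0 were higher and 16 lower (median -5.50). ND replicate 3 carried these transcripts too, and the part of this RNA in lower values of genes that the testis uses was not tested. Markers of the mesothelium, the layer that covers the fat pad, summed to 271, 32 and 110.1 FPKM in ND and 10.8, 10.03 and 18.4 FPKM in GT, and 6 of 8 were lower at an unadjusted p under 0.05 without ND replicate 1, where 11.7% of all genes were, against 0 higher and 3 lower with all 3 ND libraries (median -1.54). The ND libraries had the same order in this sum as in germ cell RNA, and the part of tissue from the testis or epididymis in it was not tested. Red blood cell markers summed to 1477, 981 and 569.7 FPKM in ND and 400.4, 369 and 304 FPKM in GT, and 5 of 5 were lower at that threshold, against 0 higher and 4 lower with all 3 ND libraries (median -1.27). Of the lower genes outside these lists, and chosen after their values were seen, Med18, a subunit of the Mediator complex, had 12.7, 10.4 and 10.6 FPKM in ND, 3.91, 4.12 and 3.49 FPKM in GT and 3.71, 3.21 and 3.57 FPKM in HFD. Med18 passed in the 11-library fit (limma adjusted p = 0.0088, 0.0386 with the block), and its ND replicate 1 was close to the other ND libraries. Gm17611 had 37.2, 7.09 and 6.84 FPKM in ND and was listed at 0 in all GT and HFD libraries, so it was tested only because of its ND level.

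Mast cell markers were lower in GT than in HFD, while none passed the test against ND. Tpsb2, a tryptase of their granules, had 1.18, 3.09 and 2.77 FPKM in ND, 2.67, 2.82 and 2.81 FPKM in GT and 9.39, 6.56 and 13.3 FPKM in HFD, and Mcpt4, a chymase, had 0.551, 3.37 and 2.43 FPKM, 2.21, 2.25 and 2.67 FPKM and 6.26, 6.68 and 11.1 FPKM in the same order. Both were lower DEGs in GT against HFD (limma adjusted p = 0.0361 and 0.0357), as were 4 of the 5 markers tested there. Against ND none of 4 tested markers had an unadjusted p under 0.05 with or without ND replicate 1. Of 20 cell cycle genes 8 were higher and none lower at an unadjusted p under 0.05, with a median of 0.68 and 1.56 in HFD, against 4 higher and 0 lower with all 3 ND libraries (median 0.51). Mcm5, a part of the replication helicase and the highest of that list, had 3.57, 1.28 and 2.43 FPKM in ND, 7.05, 6.28 and 3.54 FPKM in GT and 10.2, 9.59 and 11.3 FPKM in HFD.

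The medians of macrophage, lysosomal and inflammatory genes were above 0 with and without ND replicate 1, while those of several lists of adipocyte genes changed sign. ND replicate 1 had the lowest adipocyte sum, and with it in the fit the lists of adipokines, triglyceride synthesis, lipolysis, insulin signalling and branched-chain amino acids had medians of 0.80, 0.84, 0.48, 0.58 and 0.43. Without it they were -0.19, -0.06, -0.09, -0.15 and -0.43. The adipogenic transcription factors (0.36 and -0.05), the tricarboxylic acid cycle, the proteins of mitochondrial DNA, the mitochondrial ribosomal proteins and the clock genes also changed sign.

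**Figure D4:**
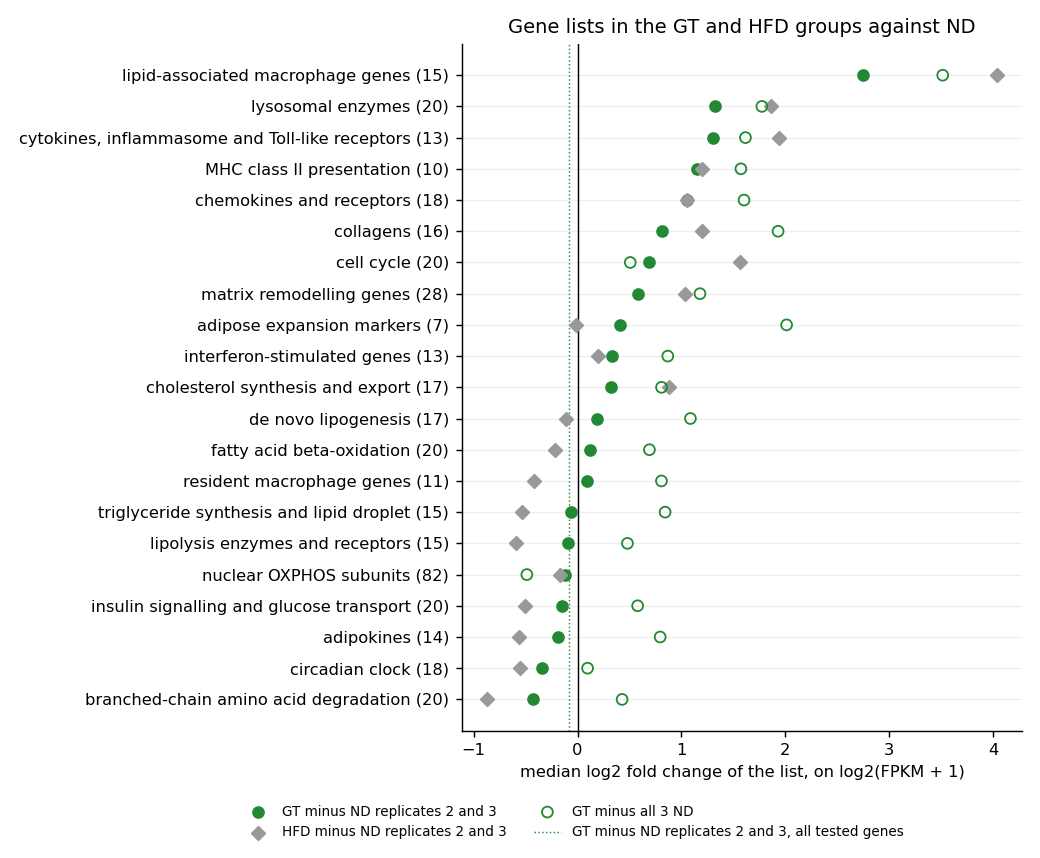
Median log2 fold change on log2(FPKM + 1) (x axis) of 21 gene lists (y axis, number of genes tested in brackets) for GT minus ND replicates 2 and 3, HFD minus the same ND libraries, and GT minus all 3 ND libraries. The lipid-associated macrophage genes had medians of 2.75, 4.04 and 3.52 in these 3 comparisons, and the branched-chain amino acid genes had -0.43, -0.87 and 0.43.

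**Figure D5:**
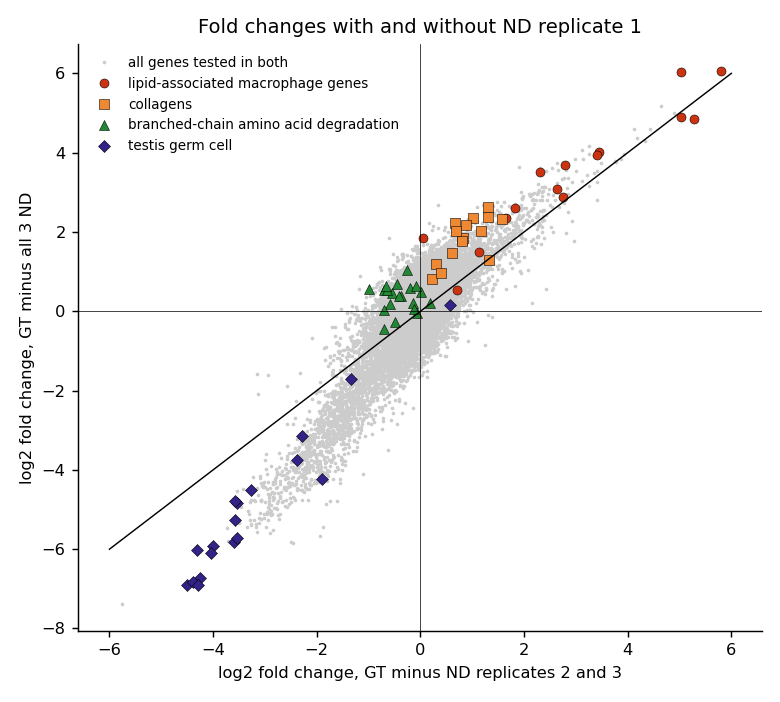
Log2 fold change of GT against ND with all 3 ND libraries (y axis) and with ND replicates 2 and 3 only (x axis), 1 point for each gene tested in both, with 4 lists in colour and the line of equal values. Macrophage genes lie high in both, collagens have medians of 1.93 and 0.81, and germ cell genes have medians of -5.50 and -3.57.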

How the data were processed

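RNA-seq was carried out on the eWAT of 12 mouse libraries, 3 for each of 4 groups. The deposited table held FPKM values, which the authors computed with Cufflinks after mapping the reads with STAR, masking noncoding genes and correcting for multireads and fragment bias. The submitters' processing notes name STAR 2.4.0, Cufflinks 2.1.1 and CASAVA 1.8.2, whereas the methods name another STAR version and the human genome, although all identifiers are those of mouse. Read counts and DEGs of the authors were not used here. Multiread correction divides the reads of near-identical genes by estimate, and FPKM give no counting error.

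Gene names and coordinates came from GENCODE mouse release M21 (GRCm38), which named 22671 of 23474 identifiers. The test was limma (version 3.58.1, R 4.3.3), with linear models and trended eBayes on log2(FPKM + 1). Genes entered where their mean over the fitted libraries was 1 FPKM or more, and p-values were adjusted by Benjamini-Hochberg over all genes tested. Log2 fold changes on this scale understate the change of low genes. The main comparison took the 3 GT and 3 ND libraries without covariates, and was repeated without ND replicate 1. A DEG had to change 1.5-fold or more at an adjusted p under 0.05. Exact permutation tests of 3 libraries against 3 cannot give a two-sided p below 0.1 and were not used for calls. Depths were estimated from the steps between low FPKM values of 2315 genes that have 1 transcript, of 1500 nt or longer.

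The comparison, the gene lists, the marker lists and the named genes were chosen with earlier results of these data known, and the lists were written from general knowledge. Named genes were, for each fit and direction, 10 genes. DEGs whose GT and ND values did not overlap came first, by log2 fold change, and the other places went to genes with an unadjusted p under 0.05 both with and without ND replicate 1, ranked by the smaller of their 2 absolute log2 fold changes. Also named were the highest and lowest members of a list, a set of fixed names, and list members that passed the test, which here means the 11-library fit. Others are named as chosen after their values were seen. Not every gene covered by this rule is named. Lists are described by counts and medians, with no set test. Reads of overlapping genes cannot be told apart, since the strand setting was not given in the sources used here.

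Same-numbered GT and ND libraries deviated from their group means with correlations of 0.219, 0.118 and 0.147, each over 0.1, so the numbers were taken to pair the libraries, although no label names anything they share. Unlike-numbered libraries had correlations of -0.207 to 0.0978. Deviations within a group of 3 sum to 0, so the 3 values are not independent and are weak grounds for pairing. Alternatives were other pseudocounts, filters, scalings, libraries in the fit, a replicate block, array weights, thresholds and each library left out. Tables were handled with python 3.11.15, pandas 2.3.3 and numpy 2.4.6, and figures were drawn with matplotlib 3.10.9.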

Additional observations from a re-analysis of the deposited data

How the results depend on the processing

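No gene was a DEG with all 3 ND libraries with quantile normalization or median-of-ratios scaling, with pseudocounts of 0.1 or 0.01, with a minimum mean of 5 FPKM, without any filter, with a filter computed without ND replicate 1, without the trend, with no fold threshold or a fold of at least 2. All 12 libraries in the fit gave 131 DEGs (121 higher, 10 lower in GT), and 131 of these were also called in the 11-library fit. The 11-library fit gave 867 (621 higher, 246 lower), the same with median-of-ratios scaling 1172 (890 and 282), and ND replicate 1 left out with that scaling 341 (292 and 49). Array weights gave 5396 (1385 and 4011), but their estimate did not converge and put a weight of 1020 on ND replicate 3 against 0.0632 and 0.0118 on the other ND libraries. With each library left out in turn the counts lay between 0 and 1038, between 0 and 59 higher and between 0 and 979 lower. They were 6 without ND replicate 1, 1038 without ND replicate 2 and 0 without any of the others. Of the 979 lower DEGs without ND replicate 2, 977 had ND replicates 1 and 3 both above ND replicate 2.

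The replicate number as a block, which pairs the GT and ND libraries, gave 0 DEGs with all 6 libraries, where there was no call to lose, and 0 (0 higher, 0 lower) in place of 6 without ND replicate 1. That last fit leaves 1 residual degree of freedom and GT replicate 1 without a partner. In the 11-library fit the block gave 90 DEGs (73 and 17) in place of 867. It is applied there across all 4 groups, although same-numbered GT and HFD libraries deviated with correlations of 0.198, 0.0534 and -0.0698 and were not paired. Both fits were added after the data were seen.

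Of 103 named genes in the main comparison, 22 changed sign at least once. With 11 libraries the log2 fold changes were -0.43 (Adipoq), -0.92 (Adrb3), -1.0 (Aldh6a1), -0.35 (Apoe), -0.23 (Cd163), -0.82 (Insr), -0.054 (Lox), -0.72 (Lyve1), -0.20 (Mcpt4), -0.095 (Npc1), -1.52 (Pck1), -0.11 (Pparg), -0.14 (Scd1), -0.061 (Tpsb2) and -0.47 (Ucp3). With 11 libraries and median-of-ratios scaling they were -0.39 (Adipoq), -0.88 (Adrb3), -0.96 (Aldh6a1), -0.30 (Apoe), -0.19 (Cd163), -0.78 (Insr), -0.012 (Lox), -0.68 (Lyve1), -0.17 (Mcpt4), -0.055 (Npc1), -1.48 (Pck1), -0.069 (Pparg), -0.095 (Scd1), -0.032 (Tpsb2) and -0.43 (Ucp3), and in the 5 libraries with that scaling -0.38 (Adipoq), -0.87 (Adrb3), -0.95 (Aldh6a1), -0.29 (Apoe), -0.18 (Cd163), -0.77 (Insr), -0.0032 (Lox), -0.67 (Lyve1), -0.17 (Mcpt4), -0.046 (Npc1), -1.47 (Pck1), -0.060 (Pparg), -0.085 (Scd1), -0.025 (Tpsb2) and -0.42 (Ucp3). With the replicate block they were -0.34 (Adipoq), -0.90 (Adrb3), -0.89 (Aldh6a1), -0.29 (Apoe), -0.24 (Cd163), -0.77 (Insr), -0.011 (Lox), -0.61 (Lyve1), -0.10 (Mcpt4), -0.13 (Npc1), -1.4 (Pck1), -0.044 (Pparg), -0.055 (Scd1), -0.058 (Tpsb2) and -0.39 (Ucp3) in the 11-library fit and -0.23 (Adipoq), -0.79 (Adrb3), -0.83 (Aldh6a1), -0.26 (Apoe), -0.21 (Cd163), -0.76 (Insr), -0.031 (Lox), -0.49 (Lyve1), -0.17 (Mcpt4), -0.17 (Npc1), -1.19 (Pck1), -0.0079 (Pparg), -0.042 (Tpsb2) and -0.28 (Ucp3) in the 5 libraries. With array weights they were -0.15 (Adipoq), -1.05 (Adrb3), -0.81 (Aldh6a1), -0.42 (Apoe), -0.27 (Cd163), -0.82 (Insr), -0.74 (Lyve1), -0.030 (Mcpt4), -0.20 (Npc1), -1.49 (Pck1), -0.024 (Scd1), -0.0058 (Tpsb2) and -0.58 (Ucp3). With all 6 libraries Pck1 was -0.051 after median-of-ratios scaling, Cxcl10 was 0.13 after quantile normalization, which moved the median of all genes from 0.024 to 0.18, and Thbs1 was 0.018 and 0.022 with pseudocounts of 0.1 and 0.01. With each library left out in turn the ranges were Acaca -1.22 to 0.42, Adipoq -0.43 to 1.46, Adrb3 -0.92 to 1.15, Aldh6a1 -1.0 to 1.43, Apoe -0.35 to 0.36, Cd163 -0.23 to 1.35, Cxcl10 -0.64 to 0.0068, Cyp2e1 -1.71 to 0.28, Grb10 -1.08 to 0.43, Insr -0.82 to 0.63, Lox -0.054 to 2.4, Lyve1 -0.72 to 0.90, Mcpt4 -0.20 to 0.55, Npc1 -0.095 to 1.36, Nrg4 -1.27 to 0.60, Pck1 -1.52 to 0.86, Pparg -0.11 to 2.1, Retn -0.83 to 0.015, Scd1 -0.14 to 2.45, Thbs1 -1.34 to 0.77, Tpsb2 -0.061 to 0.39 and Ucp3 -0.47 to 1.4. ND replicate 1 had the lowest adipocyte sum, and the cause of the sign changes was not tested.

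The comparison rests on 2 ND libraries where ND replicate 1 is left out, and these differ in germ cell RNA. FPKM carry no counting error, so differences of genes near 1 FPKM were not detectable at a known depth.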

Other observations

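S100a8 and Ighm, chosen after their values were seen, were higher in every GT library than in every ND library. S100a8, a calcium-binding protein of neutrophil granulocytes, had 0, 7.12 and 9.56 FPKM in ND, 75.5, 56 and 34.5 FPKM in GT and 53.8, 60.7 and 51.2 FPKM in HFD. Ighm, the heavy chain of immunoglobulin M, had 25.2, 170.2 and 92.7 FPKM in ND, 288, 328 and 359 FPKM in GT and 296, 276 and 275 FPKM in HFD. Both passed in the 11-library fit without ND replicate 1 (limma adjusted p = 0.0256 and 0.0339), and neither with the replicate block (0.0636 and 0.0877). Of 7 neutrophil markers, S100a8 and Csf3r, the receptor of a granulocyte growth factor, could be tested. Csf3r had 0.254, 0.603 and 1.07 FPKM in ND and 3.8, 3.28 and 1.66 FPKM in GT and was tested only because of its GT level (limma adjusted p = 0.103 in the 11-library fit). The other 5 were too low to be tested, among them S100a9, the partner of S100a8, at 0, 0.825 and 0.204 FPKM in ND and 0.619, 0 and 0.822 FPKM in GT. The summed B cell markers were 17.9, 3.87 and 4.77 FPKM in ND and 4.21, 3.67 and 3.78 FPKM in GT.

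Gusb, the lysosomal enzyme beta-glucuronidase and a common reference gene in RT-qPCR, was the highest of 10 housekeeping genes, with 6.19, 26.3 and 24.4 FPKM in ND, 121, 109.96 and 74 FPKM in GT and 185, 154 and 208 FPKM in HFD (1.93 ± 0.23 without ND replicate 1, limma adjusted p = 0.0221 in the 11-library fit and 0.0537 with the block). The median of the 10 genes was 0.27 without ND replicate 1 and 0.37 with it.

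GT replicate 3 had the lowest macrophage sum of the GT libraries (1581 FPKM) and the highest adipocyte sum (28004 FPKM), while GT replicate 1 had the highest macrophage sum (3516 FPKM) and the lowest adipocyte sum (24246 FPKM). With 3 libraries this was not tested.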
